A study of Mus musculus with 12 samples.

Results

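Elastic fiber genes encode the elastin core of the stretchable fibers of the extracellular matrix, the microfibrils around it and the small proteins that join them. The 10 genes described here are *Eln*, *Fbn1*, *Fbn2*, *Fbln1*, *Fbln2*, *Fbln5*, *Efemp1*, *Efemp2*, *Mfap4* and *Mfap5*. They were chosen by symbol through their Ensembl identifiers, with earlier results of these data known, and are 10 of 35727 genes in the count table. Their expression was measured by bulk RNAseq in cultures of neonatal mouse cardiac fibroblasts infected with *Sox17* and *Erg* retroviruses, which carry 2 transcription factors of developing endothelium, and in control cultures of the same kind of cell. *Sox17*-*Erg* samples, labelled as induced endothelial cells (iECs), and control samples, labelled as fibroblasts, were each taken 3 times (Day 3, Day 7 and, last, Week 4), which allows a comparison at each time. There were 6 groups of 2 libraries, and all 12 cultures were kept in EGM2, an endothelial growth medium.

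The fibroblasts came from pooled hearts of newborn mice, were depleted of cells with the endothelial protein PECAM1, were selected by the surface protein THY1 and received pMX-based retroviruses on the day after isolation. The study took its cells from *C57BL/6J* mice or from *Tcf21*-CreERT2 mice bred with *Rosa26*-tdTomato, and which of these gave the present libraries is not given in the sources used here. The labels name no sort before harvest, and whether a *Sox17*-*Erg* library also holds cells that did not convert was not tested. Nothing states that replicates came from separate isolations, so p-values measure the spread between these samples, which may be technical.

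Elastic fibers form when tropoelastin, the product of *Eln*, is laid down on microfibrils of fibrillin and is cross-linked there by lysyl oxidases. Fibulins help to place elastin and its cross-linking enzymes on the microfibril, and the microfibril-associated proteins bind to fibrillin or elastin. In the heart and great vessels these fibers provide recoil, and fibroblasts and smooth muscle cells are their usual makers.

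Total counts on genes ran from 19011635 to 41240449 per library, and 15506 genes had enough counts to be tested. Levels are given as CPM, a gene's counts scaled to a common library total, after TMM scaling, a correction for library composition. A gene was called higher or lower at a Benjamini-Hochberg adjusted p under 0.05 over all 15506 genes in edgeR's quasi-likelihood test, which gives the log2 fold changes, standard errors (SE) and adjusted p-values below. The targeted genes followed the labels. *Sox17* lay between 432 and 1036 CPM in *Sox17*-*Erg* libraries and at most at 0.416 CPM in control libraries, and *Erg* lay between 17.1 and 65.2 against at most 2.27 CPM. The counts do not separate viral from endogenous copies. In bulk samples, fewer cells of a type and less RNA per cell cannot be told apart, and this holds for every level given here.

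By Week 4 the elastic fiber genes had split. *Eln*, *Fbn1*, *Fbln2*, *Fbln5* and *Mfap5* were higher in *Sox17*-*Erg* samples and *Fbn2*, *Fbln1*, *Efemp1*, *Efemp2* and *Mfap4* were lower, so that all 10 genes were called, against 22.9% of all genes tested, of which 11.9% were higher and 11.0% lower. *Fbln5*, which tethers elastin to cells and microfibrils, was furthest above control (6.87-fold) and *Efemp1*, which encodes fibulin-3, furthest below it (10.6-fold). At Day 7, 4 genes were higher and 4 lower, against 9.48% and 7.93% of all genes. At Day 3 *Fbln5* alone was higher and *Efemp1* and *Efemp2* were lower, against 7.19% and 5.13%. Both *Sox17*-*Erg* libraries lay on one side of both control libraries for 7 of the 10 genes at Day 3, 9 at Day 7 and 10 at Week 4, and this was so for 64.0%, 57.9% and 62.7% of all genes tested. At all 3 time points it was so for 6 of 10 genes, against 31.7% of all genes, and on the same side each time for 5 of 10, against 28.3%.

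**Figure D1:**
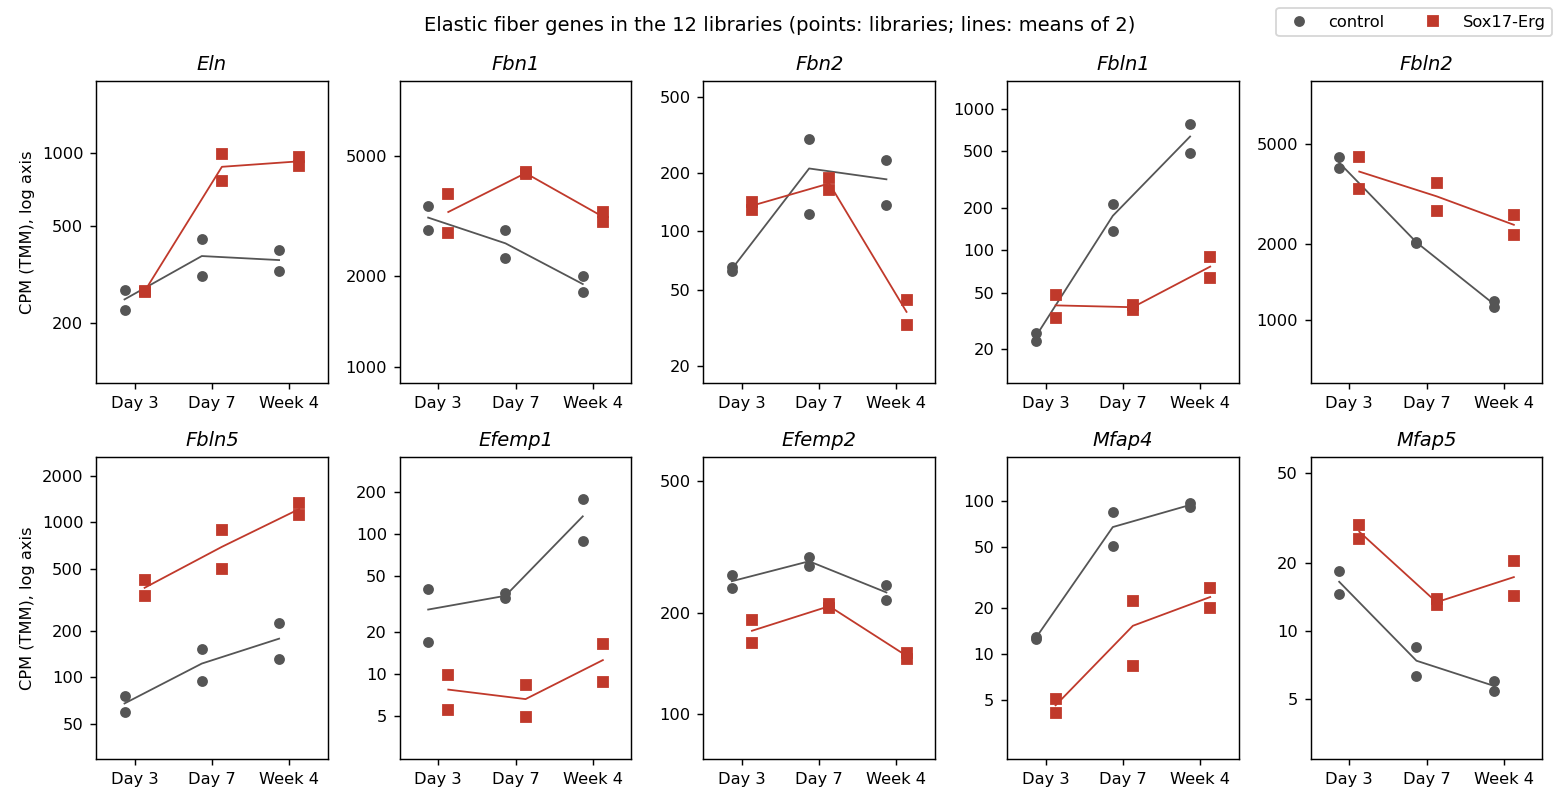
CPM of each elastic fiber gene (log axis) in control (grey circles) and *Sox17*-*Erg* (red squares) libraries at the 3 time points, with lines through the means of 2 libraries. At Week 4 the points of the 2 groups do not overlap for any of the 10 genes, as for 62.7% of all genes tested, and *Fbln5*, *Efemp1*, *Efemp2*, *Mfap4* and *Mfap5* are apart on the same side at every time point, whereas *Fbln1* is above control at Day 3 and below it later.

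*Eln* encodes tropoelastin, the soluble precursor of the elastic core. In control it was read at 273 and 226 CPM on Day 3, at 311 and 441 CPM on Day 7 and at 399 and 325 CPM in Week 4. The *Sox17*-*Erg* libraries had 269 and 271 CPM on Day 3, 982 and 765 on Day 7 and 961 and 879 in Week 4. The groups overlapped at Day 3, and from Day 7 both *Sox17*-*Erg* libraries stood above every control library. The log2 fold change was 0.11 at Day 3 (SE 0.20, adjusted p = 0.759). It was 1.22 at Day 7 (SE 0.21, adjusted p = 0.00469) and 1.35 at Week 4 (SE 0.21, adjusted p = 0.00195), or 2.54-fold. The gene lies at chr5:134702593-134747323 on the minus strand (GRCm38), where an antisense gene, *Gm30003*, overlaps it.

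The fibrillins form the microfibril itself. *Fbn1*, the main fibrillin after birth, was abundant in every library. Control libraries held 2844 and 3413 CPM on Day 3, 2294 and 2848 on Day 7 and 1771 and 2000 in Week 4, and *Sox17*-*Erg* libraries held 2783 and 3747, 4353 and 4429, and 3267 and 3033. The groups overlapped at Day 3, and both *Sox17*-*Erg* libraries were above both control libraries at Day 7 and Week 4. The log2 fold change was 0.06 at Day 3 (SE 0.21, adjusted p = 0.873), 0.77 at Day 7 (SE 0.21, adjusted p = 0.0326) and 0.74 at Week 4 (SE 0.21, adjusted p = 0.0306).

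*Fbn2*, the fibrillin best known from embryonic tissue, was called lower in *Sox17*-*Erg* samples at Week 4 and was not called at Day 3 or Day 7. At Day 3 it stood at 62.5 and 65.2 CPM in control and at 143 and 129 CPM in *Sox17*-*Erg* libraries. At Day 7 it stood at 123 and 301 against 165 and 190 CPM, and at Week 4 at 236 and 137 against 43.9 and 32.7 CPM. *Sox17*-*Erg* libraries were thus above control at Day 3, inside the control range at Day 7 and below it at Week 4. The Day 3 log2 fold change of 1.09 (SE 0.38) did not pass the adjusted threshold (adjusted p = 0.0927), nor did that of -0.26 at Day 7 (SE 0.38, adjusted p = 0.677). At Week 4 it was -2.28 (SE 0.40, adjusted p = 0.00352). The Day 3 value was called by DESeq2 (1.07, adjusted p = 0.0258), and the Day 7 value became 0.53 without control replicate 2, the library with 301 CPM.

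Among the fibulins, *Fbln5* was the only gene above control at every time point by the adjusted test. Control levels were 76.2 and 59.4 CPM on Day 3, 94.0 and 151 on Day 7 and 224 and 131 in Week 4. The *Sox17*-*Erg* libraries had 424 and 333, 892 and 501, and 1330 and 1113 CPM. Even the lowest *Sox17*-*Erg* library, at Day 3, was above the highest control library, at Week 4. Log2 fold changes were 2.48 at Day 3 (SE 0.37, adjusted p = 0.00547), 2.51 at Day 7 (SE 0.37, adjusted p = 0.0024) and 2.78 at Week 4 (SE 0.37, adjusted p = 0.00098). The gene spans chr12:101746565-101819055 on the minus strand. The Day 3 call was lost without control replicate 2 of that day (2.28, adjusted p = 0.0569).

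*Fbln2*, a large fibulin that binds fibrillin and basement membrane proteins, had the highest mean level of the fibulins per length in each of the 6 groups, although at Week 4 its control libraries overlapped those of *Fbln1*. Control cultures had 3993 and 4408 CPM on Day 3, then 2017 and 2036 on Day 7 and finally 1118 and 1189. The *Sox17*-*Erg* libraries had 3313 and 4432, 3486 and 2691, and 2600 and 2160 CPM. The groups overlapped at Day 3 and were apart later. The log2 fold change was -0.12 at Day 3 (SE 0.21, adjusted p = 0.749), 0.61 at Day 7 (SE 0.21, adjusted p = 0.0748) and 1.04 at Week 4 (SE 0.21, adjusted p = 0.00704). DESeq2 also called the Day 7 value (0.60, adjusted p = 0.0104).

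*Fbln1*, a fibulin found within elastic fibers and basement membranes, rose in control cultures and did not exceed 89.6 CPM in *Sox17*-*Erg* libraries. Its control levels were 22.8 and 25.8 CPM on Day 3, 136 and 214 on Day 7 and 786 and 487 in Week 4. In *Sox17*-*Erg* libraries they were 48.2 and 33.0, 37.9 and 40.9, and 63.1 and 89.6 CPM. At Day 3 both *Sox17*-*Erg* libraries were the higher ones, and at Day 7 and Week 4 they were far below control. The Day 3 log2 fold change of 0.74 did not pass (SE 0.30, adjusted p = 0.139). The later values were -2.15 (SE 0.31, adjusted p = 0.00212) and -3.06 (SE 0.32, adjusted p = 0.00025), the last an 8.33-fold lower level. The gene lies at chr15:85205949-85286535 on the plus strand.

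*Efemp1* and *Efemp2* encode fibulin-3 and fibulin-4, and the latter is needed for elastin cross-linking through its binding of lysyl oxidase. *Efemp1* stood in control at 40.6 and 17.0 CPM on Day 3, 37.5 and 34.6 on Day 7 and 177 and 88.9 in Week 4. It stood at 9.87 and 5.56, 4.93 and 8.26, and 16.4 and 8.70 CPM in *Sox17*-*Erg* libraries. No *Sox17*-*Erg* library reached the lowest control library of any time point. Log2 fold changes were -1.91 on Day 3 (SE 0.53, adjusted p = 0.0466), -2.46 on Day 7 (SE 0.53, adjusted p = 0.0138) and -3.41 in Week 4 (SE 0.54, adjusted p = 0.00224). The gene lies at chr11:28853204-28926743 on the plus strand.

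*Efemp2* had the narrowest range of the 10 genes across the 12 libraries, as the ratio of the highest to the lowest. Control libraries held 239 and 260 CPM on Day 3, 278 and 295 on Day 7 and 243 and 219 in Week 4, and *Sox17*-*Erg* libraries held 163 and 191, 207 and 213, and 146 and 152 CPM. All *Sox17*-*Erg* libraries were below all control libraries. It was lower at Day 3 (log2 fold change -0.49, SE 0.12, adjusted p = 0.0288), at Day 7 (-0.45, SE 0.12, adjusted p = 0.0298) and at Week 4 (-0.63, SE 0.12, adjusted p = 0.00492). *Mus81* overlaps the gene on the other strand, and the strand setting of the quantification is not given in the sources used here.

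*Mfap4* encodes a fibrinogen-like protein that binds elastin and fibrillin. Its control levels were 12.8 and 12.5 CPM on Day 3, 50.3 and 84.4 on Day 7 and 96.8 and 91.0 in Week 4, and its *Sox17*-*Erg* levels were 4.15 and 5.13, 8.38 and 22.2, and 20.1 and 27.0 CPM. It was below control in every *Sox17*-*Erg* library of the same time point. The log2 fold change of -1.45 at Day 3 did not pass (SE 0.43, adjusted p = 0.0574). It was called by DESeq2 (-1.47, adjusted p = 0.00371) and by edgeR with the replicate number in the fit (-1.48, adjusted p = 0.0264). The log2 fold changes of -2.15 at Day 7 (SE 0.41, adjusted p = 0.00762) and -1.99 at Week 4 (SE 0.40, adjusted p = 0.00724) passed. *Mapk7* overlaps *Mfap4* on the other strand.

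*Mfap5*, which encodes the microfibril protein MAGP-2, was higher in *Sox17*-*Erg* samples at Day 7 and Week 4. In control it had 14.6 and 18.45 CPM on Day 3, 8.49 and 6.31 on Day 7 and 6.01 and 5.45 in Week 4. The *Sox17*-*Erg* libraries had 25.5 and 29.5, 13.0 and 13.8, and 20.4 and 14.2 CPM and were above control at each time point. The log2 fold change of 0.74 at Day 3 was just short of the threshold (SE 0.21, adjusted p = 0.0518) and was called by DESeq2 (0.72, adjusted p = 0.029). It was 0.86 at Day 7 (SE 0.22, adjusted p = 0.026) and 1.59 at Week 4 (SE 0.22, adjusted p = 0.00108).

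**Figure D2:**
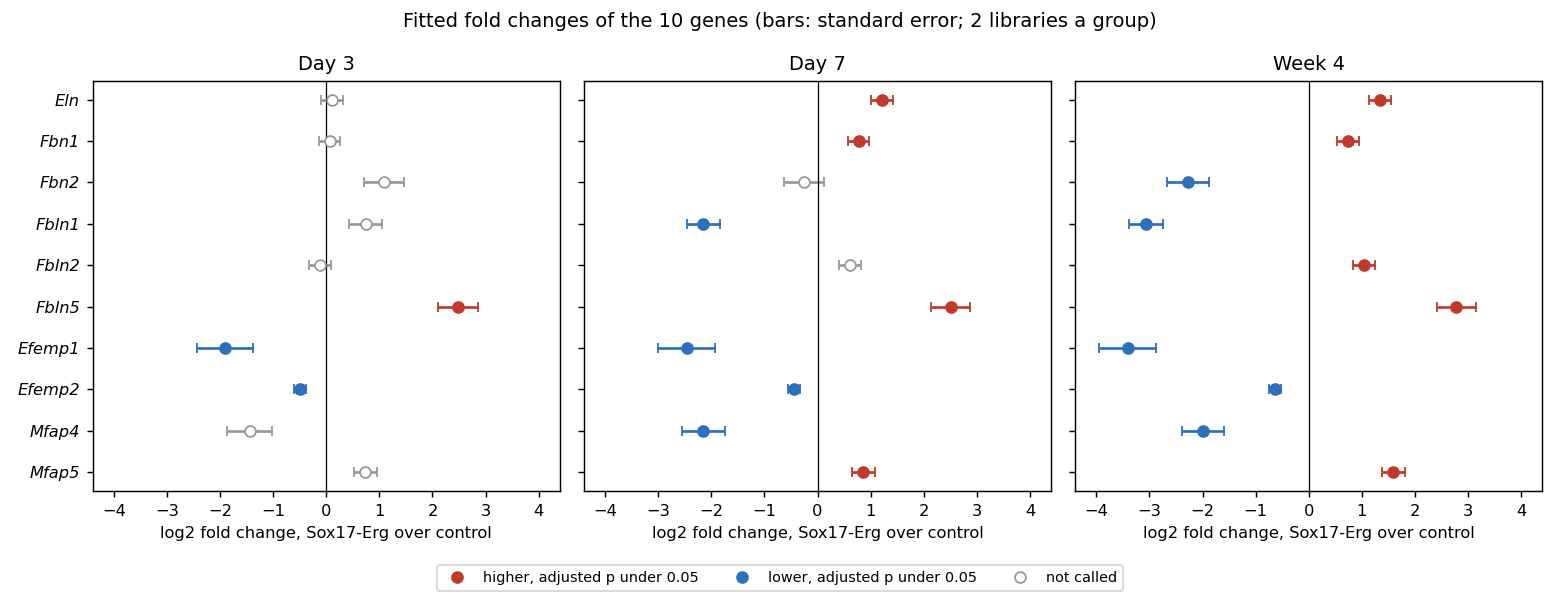
Fitted log2 fold change of *Sox17*-*Erg* over control for each gene at the 3 time points, with the standard error as a bar. Filled red points were called higher, filled blue points lower and open points were not called, and the called genes number 3, 8 and 10 of 10, against 12.3%, 17.4% and 22.9% of all genes tested.

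With 2 libraries a group, several of these calls rested on single libraries. At Week 4 the call of *Fbn1* was lost without either library of either group, with log2 fold changes of 0.66 and 0.84 without control replicates 1 and 2 and 0.68 and 0.77 without the *Sox17*-*Erg* ones. *Fbln2* lost its Week 4 call without control replicate 1 (1.0, adjusted p = 0.0506) or *Sox17*-*Erg* replicate 1 (0.90, adjusted p = 0.0532), and *Mfap4* lost it without *Sox17*-*Erg* replicate 1 (-1.80, adjusted p = 0.0688). *Eln*, *Fbn2*, *Fbln1*, *Fbln5*, *Efemp1*, *Efemp2* and *Mfap5* kept their Week 4 calls without any 1 of the 12 libraries. Without control replicate 1 of Week 4 the fold change of *Efemp1* was -2.82. At Day 7 the calls of *Fbn1* (0.60 to 0.94) and *Efemp2* (-0.51 to -0.40) were lost without any 1 of the 4 libraries of that day and without control replicate 1 of Day 3, and that of *Fbn1* also without control replicate 2 or *Sox17*-*Erg* replicate 1 of Week 4. The Day 7 call of *Mfap5* (0.66 to 1.06) was lost without control replicate 2 or either *Sox17*-*Erg* library of that day, and that of *Efemp1* without *Sox17*-*Erg* replicate 1 (-2.13, adjusted p = 0.126). At Day 3 the call of *Efemp1* was lost without any 1 of the 4 libraries of that day, either control library of Day 7 or either *Sox17*-*Erg* library of Week 4 (-2.43 to -1.14), and that of *Efemp2* without control replicate 1 or 2 or *Sox17*-*Erg* replicate 1 (-0.62 to -0.42).

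Some calls also depended on the libraries and genes in the edgeR fit. When the 4 libraries of a time point were fitted alone, the Day 3 call of *Efemp1* (adjusted p = 0.0618) and the Week 4 call of *Fbn1* (adjusted p = 0.0556) were lost. At Day 7 the same fit lost those of *Eln* (adjusted p = 0.0591), *Mfap4* (0.074), *Mfap5* (0.0917), *Efemp2* (0.131) and *Fbn1* (0.133), while at Day 3 it added *Fbn2* (0.0124), *Mfap4* (0.016) and *Mfap5* (0.0408). Without the filter on low counts *Efemp2* lost its calls at Day 3 (adjusted p = 0.0511) and Day 7 (0.0843), and *Fbn2*, *Fbln1*, *Mfap4* and *Mfap5* were called at Day 3. The directions of these values were as in the fit over all 12 libraries.

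An exact two-sided permutation test of the log2 CPM of each gene, with labels permuted within time points over all 12 libraries, uses no model across genes. The smallest p that this design can give is 0.00926, and *Fbln5* (mean difference 2.60), *Mfap5* (1.06), *Efemp2* (-0.52), *Mfap4* (-1.90) and *Efemp1* (-2.56) reached it, as any gene does whose libraries are apart on the same side at all 3 time points (28.3% of all genes). *Eln* (0.90) and *Fbn1* (0.52) had p = 0.0278 and *Fbln2* (0.50) p = 0.0463 in the same exact test. For *Fbln1* (-1.48) the exact test gave p = 0.0556 and for *Fbn2* (-0.43) p = 0.417, and the Day 3 values of both lay above control.

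The difference in effect between time points was tested as an interaction. From Day 3 to Week 4 the effect on *Fbn2* moved by -3.37 on the log2 scale (SE 0.55, adjusted p = 0.0136) and that on *Fbln1* by -3.80 (SE 0.44, adjusted p = 0.00416), so 2 of 10 genes were called, against 3.21% of all genes tested, of which 2.22% moved up and 0.987% down. *Eln* (1.23, SE 0.29, adjusted p = 0.057) and *Fbln2* (1.16, SE 0.29, adjusted p = 0.0733) did not pass, whereas DESeq2 called both (1.26 and 1.19). The change of *Fbn2* was no longer called without either control library of Day 3 or either *Sox17*-*Erg* library of Week 4 (-3.57 to -3.19). Between Day 3 and Day 7, 0 of 10 genes were called by edgeR, against 0.0838% of all genes (0.0322% up and 0.0516% down), 5 had an unadjusted p under 0.05 and DESeq2 called 2. Between Day 7 and Week 4, 0 were called by edgeR, against 0.0387% (0.0258% up and 0.0129% down), 2 had an unadjusted p under 0.05 and DESeq2 called 1. The shares of all genes in these 2 comparisons are those of edgeR's adjusted p. Shares at an unadjusted p under 0.05 or by DESeq2 are not given here, so the counts by those criteria have no background.

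Levels also differed between time points within each treatment. Time points are separate harvests, so time and the handling of each harvest cannot be told apart. The tests of time use the same libraries as the tests of *Sox17*-*Erg* against control, so the 2 kinds of result are not independent. In control cultures 5 of 10 genes rose from Day 3 to Week 4, against 13.9% of all genes, and 3 fell, against 12.6% (26.5% in either direction). *Fbln1* rose 26.2-fold (log2 fold change 4.71, SE 0.35, adjusted p = 0.000134), the largest rise of the 10. *Mfap4* (2.89), *Efemp1* (2.21), *Fbn2* (1.55) and *Fbln5* (1.39) also rose, with adjusted p between 0.00182 and 0.0208, and *Fbln2* (-1.86), *Mfap5* (-1.52) and *Fbn1* (-0.73) fell, with adjusted p between 0.000744 and 0.0296. *Eln* at 0.54 (adjusted p = 0.0829) and *Efemp2* at -0.11 (adjusted p = 0.515) were not called.

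The control rise of *Fbln1* had begun by Day 7 (2.85, SE 0.32, adjusted p = 0.00275) and went on from there to Week 4 (1.86, SE 0.30, adjusted p = 0.0473). It was the only one of the 10 genes called between Day 7 and Week 4 in control, where 0.174% of all genes were higher, 0.219% lower and 0.393% either. *Fbn2* and *Mfap4* were also higher at Day 7 than at Day 3 in control (4.70% of all genes) and *Fbln2* and *Mfap5* lower (4.06%), 5 of 10 against 8.76% in all. Removing control replicate 1 of Week 4 ended the control calls from Day 3 to Week 4 of *Fbn1* (-0.64), *Fbn2* (1.10), *Fbln5* (0.95) and *Efemp1* (1.63), and removing control replicate 2 of Day 3 ended those of the same 4 genes (-0.61, 1.56, 1.21 and 1.70). *Fbn2* (1.52), *Fbln5* (1.58) and *Fbn1* (-0.85) also lost them without control replicate 1 of Day 3, and *Fbn1* (-0.81) without control replicate 2 of Week 4.

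In *Sox17*-*Erg* cultures 4 genes rose from Day 3 to Week 4, against 15.1% of all genes, and 3 fell, against 15.6% (30.7% in either direction). *Mfap4* (2.34, SE 0.43, adjusted p = 0.00484), *Eln* (1.77, SE 0.21, adjusted p = 0.000832), *Fbln5* (1.69, SE 0.36, adjusted p = 0.00858) and *Fbln1* (0.91, SE 0.30, adjusted p = 0.0469) rose. *Fbn2* (-1.83, SE 0.39, adjusted p = 0.00869), *Fbln2* (-0.70, SE 0.21, adjusted p = 0.0311) and *Mfap5* (-0.67, SE 0.21, adjusted p = 0.0396) fell. *Eln* made its rise between Day 3 and Day 7 (1.70, adjusted p = 0.0138), where 2.04% of all genes rose and 3.42% were called, and *Fbn2* made its fall between Day 7 and Week 4 (-2.21, adjusted p = 0.0321), where 0.671% fell, 1.15% rose and 1.82% were called. *Mfap5* fell between Day 3 and Day 7 (-1.04, adjusted p = 0.0376), where 1.38% of all genes fell.

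The *Sox17*-*Erg* rise of *Eln* and *Mfap4* from Day 3 to Week 4 was called without any 1 library. That of *Fbln5* was lost without *Sox17*-*Erg* replicate 2 of Day 3 (1.53, adjusted p = 0.0583) and the fall of *Fbn2* without *Sox17*-*Erg* replicate 2 of Week 4 (-1.63, adjusted p = 0.058). Those of *Fbln1* (0.64 to 1.26), *Fbln2* (-0.84 to -0.47) and *Mfap5* (-0.90 to -0.43) were lost without 7, 7 and 8 of the 12 libraries when each was removed in turn. The rise of *Fbln1* was also lost in edgeR with the replicate number in the fit (0.91, adjusted p = 0.0601). The direction of these 7 genes held in each of the 12 removals.

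Levels of different genes can be compared only per length. Per kilobase of exon union, control libraries at Week 4 ranked *Fbln2* first at 181 ± 7.91 CPM per kilobase (SD, n = 2), followed by *Fbn1* (155 ± 13.3), *Fbln1* (146 ± 48.4), *Efemp1* (65.4 ± 30.8), *Efemp2* (61.0 ± 4.38), *Mfap4* (48.8 ± 2.14), *Eln* (44.7 ± 6.42), *Fbln5* (25.7 ± 9.56), *Fbn2* (14.1 ± 5.29) and *Mfap5* (1.60 ± 0.111). The libraries of *Fbln1* overlapped those of *Fbln2* and *Fbn1*, those of *Efemp1* overlapped those of *Efemp2*, *Mfap4* and *Eln*, and those of *Mfap4* and *Eln* overlapped, so the order within these pairs is not set. *Sox17*-*Erg* libraries at Week 4 ranked *Fbln2* (374 ± 48.8) and *Fbn1* (260 ± 13.7) first too, but then *Fbln5* (177 ± 22.2) and *Eln* (114 ± 7.20). *Efemp2* (39.4 ± 1.05), *Fbln1* (17.5 ± 4.29), *Mfap4* (12.3 ± 2.55), *Efemp1* (6.15 ± 2.65), *Mfap5* (4.83 ± 1.22) and *Fbn2* (2.90 ± 0.600) followed, and *Efemp1* and *Mfap5* overlapped. *Fbln1* thus held rank 3 by its mean in control and rank 6 in *Sox17*-*Erg* libraries, and *Fbln5* rank 8 and rank 3. Per length of the longest transcript, which is 3853 bases for *Eln* against 8098 in its exon union, *Eln* took rank 4 in control and rank 3, above *Fbln5*, in *Sox17*-*Erg* libraries. On that scale *Fbln1* took rank 2 and *Efemp1* rank 6 in control, and *Mfap5* stood above *Efemp1* in *Sox17*-*Erg* libraries.

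**Figure D3:**
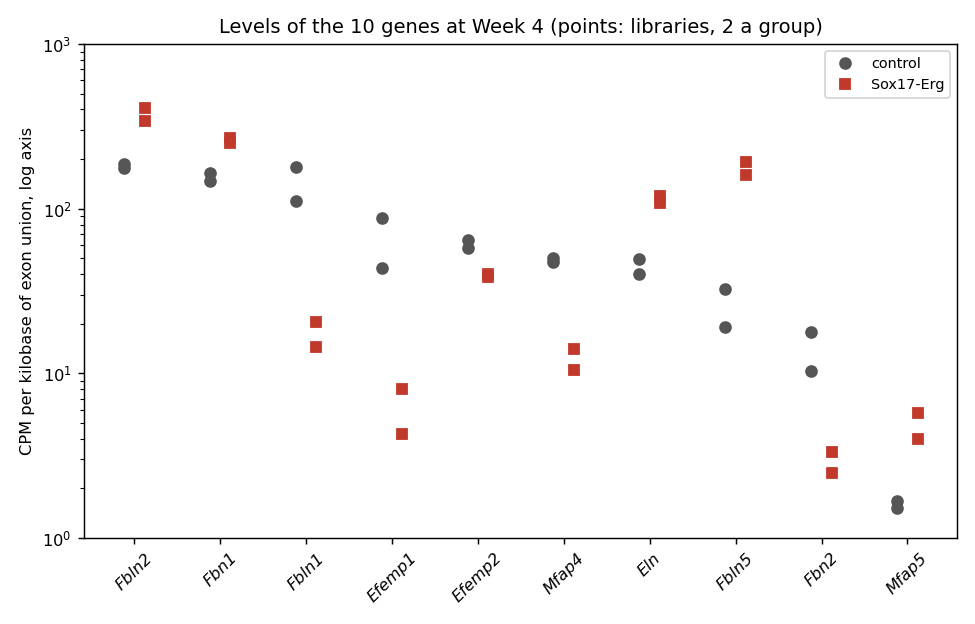
CPM per kilobase of exon union (log axis) of each gene in the 2 control (grey circles) and 2 *Sox17*-*Erg* (red squares) libraries of Week 4, in the order of the control means. *Fbln5* lies between 161 and 192 in *Sox17*-*Erg* libraries and between 18.9 and 32.5 in control, and *Fbln1* between 14.5 and 20.5 against 111 and 180.

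The 10 genes together took between 0.476% and 0.818% of all counts in control libraries and between 0.746% and 0.999% in *Sox17*-*Erg* libraries. *Fbn1* and *Fbln2* made up most of this sum. The control share was 0.769% and 0.818% on Day 3, 0.556% and 0.620% on Day 7 and 0.489% and 0.476% in Week 4. In *Sox17*-*Erg* libraries it was 0.746% and 0.874%, 0.999% and 0.888%, and 0.827% and 0.811%. The groups overlapped at Day 3 and not later.

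The make-up of the microfibril was described by ratios within a library, which do not depend on library size. Per kilobase, *Fbn2* came to 2.02% and 1.75% of *Fbn1* in control on Day 3, 4.92% and 9.70% on Day 7 and 12.2% and 6.28% in Week 4. In *Sox17*-*Erg* libraries it came to 4.71% and 3.17%, 3.47% and 3.94%, and 1.23% and 0.990%. The *Sox17*-*Erg* libraries were above control at Day 3 and below it at Day 7 and Week 4. Differences of the log2 ratio were 1.04, -0.90 and -2.99, and their mean of -0.95 was not distinguished from 0 (exact permutation within time points, two-sided, p = 0.185).

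*Mfap2* encodes MAGP-1, the partner of MAGP-2 on the microfibril, and is no member of the set. Per kilobase, *Mfap5* came to 41.0% and 42.7% of *Mfap2* in control on Day 3, 12.9% and 6.10% on Day 7 and 13.8% and 12.1% in Week 4. In *Sox17*-*Erg* libraries it came to 75.6% and 74.0%, 15.6% and 19.0%, and 48.2% and 26.0%. All *Sox17*-*Erg* libraries were above the control libraries of their time point. Differences of the log2 ratio were 0.84, 0.96 and 1.45 with a mean of 1.08. The exact two-sided permutation within time points gave p = 0.00926, the smallest it can give. Any value apart on the same side at all 3 time points reaches it, as 28.3% of all genes were by their CPM. *Mfap5* by itself was apart in this way, so the ratio is no separate result. At 1 time point alone the smallest p is 0.333.

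**Figure D4:**
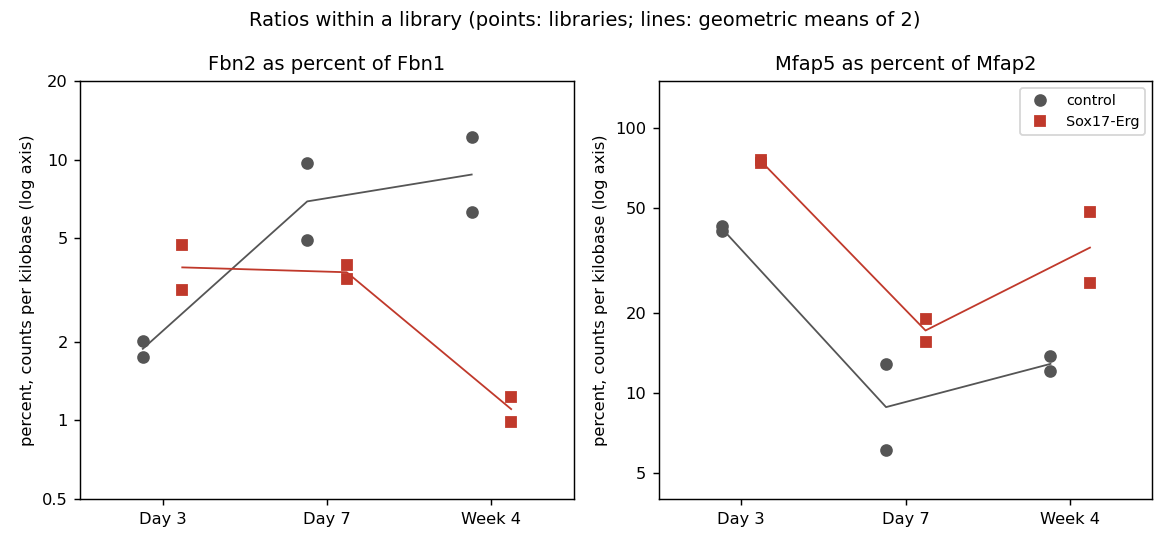
Ratio of *Fbn2* to *Fbn1* and of *Mfap5* to *Mfap2* per kilobase in each library, in percent on a log axis, in control (grey circles) and *Sox17*-*Erg* (red squares) libraries, with lines through geometric means. At Week 4 *Fbn2* comes to 12.2% and 6.28% of *Fbn1* in control and to 1.23% and 0.990% in *Sox17*-*Erg* libraries, and *Mfap5* is the higher one in *Sox17*-*Erg* libraries at each time point.

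Beyond these 10 genes, 46 other genes of elastic fiber assembly and turnover were listed by role, of which 43 could be tested and *Emilin3*, *Elane* and *Serpina1a* could not. At Week 4, 6 were higher and 8 lower in *Sox17*-*Erg* samples, against 11.9% and 11.0% of all genes. Their median log2 fold change was -0.13, and that of all genes -0.01. At Day 7, 5 were higher and 8 lower (9.48% and 7.93% of all genes), and at Day 3, 3 were higher and 8 lower (7.19% and 5.13%).

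The lysyl oxidases cross-link elastin. At Week 4 edgeR called 0 of 5, against 22.9% of all genes, 1 had an unadjusted p under 0.05 and DESeq2 called 0. At Day 7 edgeR called 0, against 17.4%, 2 had an unadjusted p under 0.05 and DESeq2 called 1 higher and 1 lower. *Lox* held 1460 and 1442 CPM in control and 2469 and 2444 CPM in *Sox17*-*Erg* libraries at Day 7, with no overlap (log2 fold change 0.76, SE 0.24, adjusted p = 0.0558 in edgeR and 0.00721 in DESeq2), and 1654 and 1232 against 2113 and 1530 CPM at Week 4, with overlapping ranges. *Loxl1* was below control in both libraries at Day 7 (656 and 975 against 413 and 603 CPM, adjusted p = 0.115 in edgeR and 0.0458 in DESeq2) and at Week 4 (988 and 835 against 571 and 568 CPM, adjusted p = 0.102 in edgeR and 0.0501 in DESeq2). At Day 3 *Loxl2* was higher, with 791 and 756 CPM in control and 1416 and 1539 CPM in *Sox17*-*Erg* libraries (log2 fold change 0.93, SE 0.23, adjusted p = 0.0343), and this call was lost without any 1 of the 4 libraries of Day 3 (0.87 to 0.97), control replicate 1 of Day 7 (0.89) or control replicate 2 of Week 4 (0.89).

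Of 17 tested microfibril partners, 4 were higher and 4 lower at Week 4. *Ltbp1*, a fibrillin-like protein that anchors latent TGF-beta in the matrix, had 45.2 and 54.6 CPM in control and 594 and 564 CPM in *Sox17*-*Erg* libraries (log2 fold change 3.54, SE 0.25, adjusted p = 2.89e-05). Its effect grew by 2.58 between Day 3 and Week 4 (SE 0.32, adjusted p = 0.00515). *Ltbp4*, which takes part in elastin assembly together with *Fbln5*, had 2064 and 2030 against 4757 and 4775 CPM (1.22, SE 0.19, adjusted p = 0.00199). *Emilin2* (1.58) and *Vcan* (1.74), a proteoglycan that binds fibulins and fibrillin, were also higher. The lower genes were *Fbln7* (-2.57), *Adamtsl2* (-2.20), *Adamts10* (-1.17) and *Adamtsl4* (-1.13), and of these *Adamtsl2*, a microfibril-binding ADAMTS-like protein, had the most counts, at 3314 and 3020 CPM in control and 565 and 812 CPM in *Sox17*-*Erg* libraries. *Emilin2* lost its Week 4 call without control replicate 1 (1.25) and *Vcan* without control replicate 1 (1.40) or *Sox17*-*Erg* replicate 1 (1.31). *Fbln7* and *Adamtsl4* lost theirs without control replicate 1 (-1.95 and -0.92), *Sox17*-*Erg* replicate 1 (-2.78 and -1.03) or *Sox17*-*Erg* replicate 2 (-2.42 and -1.28). That of *Adamtsl2* was lost without any 1 of the 4 libraries of Week 4 (-2.51 to -1.97) or control replicate 2 of Day 3 (-2.17), and that of *Adamts10* without any 1 of the 8 libraries of Day 3 and Week 4 (-1.40 to -0.88).

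Of 8 tested elastases and other elastin-cutting proteases, 3 were lower at Week 4 and 0 higher. *Mmp2*, a gelatinase, had 1692 and 1281 CPM in control and 551 and 535 CPM in *Sox17*-*Erg* libraries (-1.45, SE 0.20, adjusted p = 0.00122) and held this call without any 1 library. *Mmp3*, stromelysin-1, was lower too (-3.36, SE 0.64, adjusted p = 0.00567), but not without *Sox17*-*Erg* replicate 1 of Week 4 (-3.23, adjusted p = 0.0606). The difference of *Ctsk*, cathepsin K, was small (-0.72, SE 0.22, adjusted p = 0.0426) and was called in only 2 of the 12 removals of a library (-0.84 to -0.57). Of 5 tested elastase inhibitors, *Timp2*, an inhibitor of matrix metalloproteinases, was lower at Week 4, with 2895 and 2272 CPM in control and 1504 and 1116 CPM in *Sox17*-*Erg* libraries at Week 4 (-0.98, SE 0.23, adjusted p = 0.0149), a call that was lost without control replicate 1 (-0.79) or *Sox17*-*Erg* replicate 2 (-0.81) of that time and when that time was fitted alone (adjusted p = 0.0518).

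Of 8 genes for elastin receptors, the integrin subunits *Itgb3* and *Itga5* were higher at Week 4 and 0 were lower. *Itgb3* had 10.8 and 17.2 CPM in control and 41.7 and 39.2 CPM in *Sox17*-*Erg* libraries (1.54, SE 0.27, adjusted p = 0.00408), and *Itga5* had 53.8 and 88.4 against 178 and 192 CPM (1.38, SE 0.26, adjusted p = 0.00567). Both integrin genes, and likewise *Ltbp1* and *Ltbp4*, kept their Week 4 calls in each of the 12 removals of a library. The effect on *Itgb3* was larger at Week 4 than at Day 3 (by 1.84, SE 0.38, adjusted p = 0.0362), where the fold change was -0.31 and not called.

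**Figure D5:**
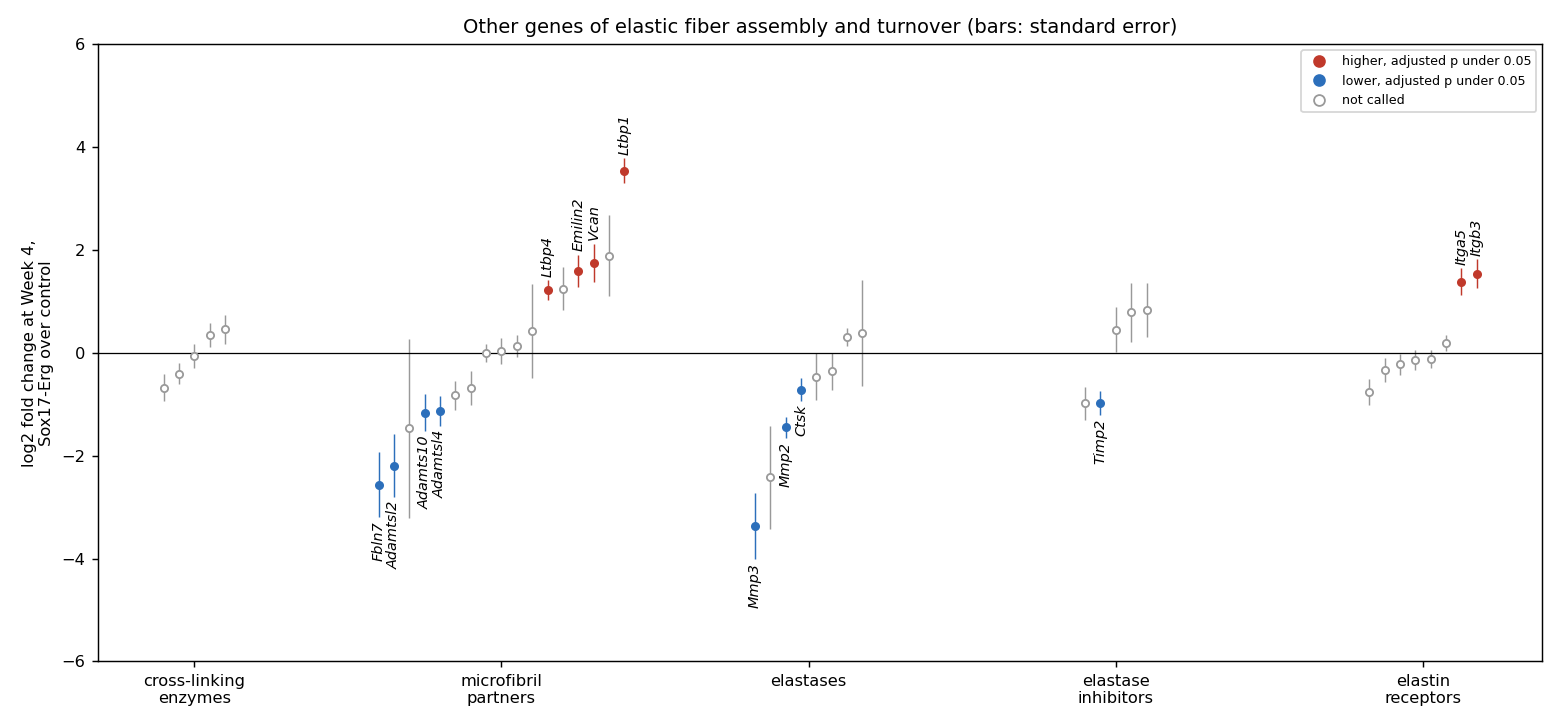
Fitted log2 fold change at Week 4 of 43 other genes of elastic fiber assembly and turnover, in 5 groups by role, with the standard error as a bar. Named red points (6) were called higher and named blue points (8) lower, against 11.9% and 11.0% of all genes tested. None of the 5 cross-linking enzymes is among them, and 22.9% of all genes were called.

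The 250 bases upstream of a start site are shown for the gene furthest above control at Week 4, *Fbln5*, and the genes furthest below it, *Efemp1* and *Fbln1*, since the treatment adds an ETS factor (ERG) and a SOX factor. They are the upstream part of RefSeq promoter windows of GRCm38.p6, which hold 6 of the 10 genes (*Fbn1*, *Fbln1*, *Fbln2*, *Fbln5*, *Efemp1* and *Efemp2*) in 10 windows. The *Fbln5* window is chr12:101819120-101819369 on the minus strand, the *Efemp1* window chr11:28852955-28853204 and the *Fbln1* window chr15:85205699-85205948, both on the plus strand. *Fbln5* and *Fbln1* have 2 windows each, of which the more upstream one is shown. Capitals mark matches, on either strand, to GGAA, the core letters of ETS sites (TTCC on the other strand), and to ACAAT, within the core of SOX sites (ATTGT on the other strand).
Fbln5: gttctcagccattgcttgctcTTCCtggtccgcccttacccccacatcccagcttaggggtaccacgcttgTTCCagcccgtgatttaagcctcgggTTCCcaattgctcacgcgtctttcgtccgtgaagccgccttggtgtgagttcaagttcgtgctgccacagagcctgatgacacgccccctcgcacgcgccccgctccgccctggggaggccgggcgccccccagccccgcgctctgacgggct
Efemp1: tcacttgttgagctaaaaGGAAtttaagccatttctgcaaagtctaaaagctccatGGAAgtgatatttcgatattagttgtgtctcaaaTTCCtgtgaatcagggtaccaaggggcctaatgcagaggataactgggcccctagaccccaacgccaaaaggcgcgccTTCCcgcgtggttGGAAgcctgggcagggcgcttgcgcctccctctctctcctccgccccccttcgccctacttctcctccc
Fbln1: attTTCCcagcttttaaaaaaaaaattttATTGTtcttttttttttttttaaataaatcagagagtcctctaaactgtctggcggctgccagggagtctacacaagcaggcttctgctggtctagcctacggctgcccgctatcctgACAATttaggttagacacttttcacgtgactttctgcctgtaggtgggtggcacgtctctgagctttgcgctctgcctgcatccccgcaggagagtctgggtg
The longer words CCGGAA and ACAATG were found on either strand in 0 of the 10 windows, while 3952 and 3512 (10.7%) of 32851 windows of this length hold them. GGAA was in 9 of 10 windows, and in 93.4% of all windows. ACAAT was in 2 of 10, both of *Fbln1* and overlapping each other, and in 27.7% of all windows. The *Fbln5* window not shown, chr12:101818485-101818734, held 5 matches to GGAA against 3 in the one shown, and that of *Fbln1*, chr15:85205758-85206007, held 0 to GGAA and 1 to ACAAT against 1 and 2. A match to so short a word describes the letters and is no binding site, and a window without one says nothing about the factor.

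Markers of cell types were followed beside these genes as summed CPM. For the counts of called markers below, the background is edgeR's share of calls among all tested genes. That share was 12.3% at Day 3 (7.19% up, 5.13% down) and 17.4% at Day 7 (9.48% up, 7.93% down). By Week 4 it had reached 22.9% (11.9% up, 11.0% down). It applies to edgeR's adjusted p only, not to counts by DESeq2 or at an unadjusted p. The 10 fibroblast markers, none of them at 0, overlapped between the groups in their sum at Day 3 and Day 7, and at Week 4 summed to 20576 and 17028 CPM in control and to 13074 and 13744 CPM in *Sox17*-*Erg* libraries, with no overlap. At Day 7, 1 of them was higher and 3 were lower, and at Week 4, 1 was higher and 4 were lower. *Dcn*, *Lum*, *Pdgfra* and *Tcf21* were the lower ones at Week 4 (-3.39 to -2.14), and *Postn*, also a marker of activated fibroblasts, was higher (4.74, SE 0.30, adjusted p = 1.9e-05). The 10 endothelial markers summed to between 20.9 and 61.4 against between 314 and 774 CPM, and at Week 4, 7 of 9 tested were higher, *Cldn5* being too low to test and 1 of the 10 at 0 in 4 libraries. The label iEC was thus met by a higher endothelial sum beside fibroblast markers that were still read. The 6 smooth muscle markers were above control in their sum at each time point, with 3731 and 3351 against 4681 and 4399 CPM on Day 3, 1415 and 609 against 4218 and 1779 on Day 7, and 1045 and 2598 against 4161 and 3992 in Week 4. At Day 3 edgeR called 0 of 6, 2 had an unadjusted p under 0.05 and DESeq2 called 1 lower. At Day 7 *Acta2* (1.93), *Myh11* (2.04) and *Cnn1* (3.19) were higher and *Des* (-2.20) lower, and at Week 4 *Myh11* (2.46) and *Cnn1* (4.72) were higher and *Des* (-1.90) lower. The smooth muscle sums thus hold genes that went both ways. The 4 pericyte markers overlapped between the groups in their sum at Day 3 and were above control later, with 43.9 and 27.0 against 236 and 133 CPM on Day 7 and 34.1 and 22.0 against 118 and 141 in Week 4, and 2 of them were higher and 0 lower at Day 7 and 2 higher and 2 lower at Week 4. The mesothelial list was below control in its sum at each time point (279 to 1380 against 131 to 318 CPM over all times) and all 6 genes were lower at Week 4. The cardiomyocyte list was likewise below control at each time point (615 to 1512 against 329 to 679 CPM), with 3 of 6 lower at Week 4. The macrophage list overlapped at Day 3 and Week 4 and was below control at Day 7 (827 and 1237 against 252 and 423 CPM), with 0 of 7 genes called at any time point by edgeR or DESeq2 and 0 at an unadjusted p under 0.05. The part of these other cell types in the values of the elastic fiber genes was not tested.

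At most 1.23% of the 31-base words of any of the 10 genes, that of *Efemp2*, occur in other genes. The figure for *Eln* was 0.661% and for the others at most 0.22%.

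The genes whose log2 CPM followed a given elastic fiber gene most closely over the 12 libraries are listed as a description, since all points share 6 groups. For *Eln* they were *Ccdc22* (Pearson r 0.95), *Hlx* (0.94) and *Olfm2* (0.94). For *Fbln5* they were *Hey1* (0.99), *Akap13* (0.98) and *Rgs5* (0.98). For *Efemp1* they were *Txlnb* (0.97), *Tcf23* (0.97) and *Zfp185* (0.96).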

How the data were processed

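RNA was extracted with Trizol and made into stranded Kapa mRNA libraries, sequenced as paired reads and demultiplexed with bcl2fastq 2.20.0. The authors trimmed reads with BBDuk and quantified genes with Salmon, with mm10 (GRCm38) per the submitters' processing notes. The Salmon version, the strand setting and the annotation release are not given in the sources used here. The deposited values are estimated counts per Ensembl gene, already rounded to whole numbers and not normalized. The authors used DESeq2 for their own comparisons.

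Samples were grouped by treatment and time from the sample labels. Genes passing filterByExpr in edgeR 4.0.16 (R 4.3.3; minimum count 10, minimum total 15) were scaled by TMM and fitted with 1 coefficient per group over all 12 libraries, and contrasts were tested with glmQLFTest (limma 3.58.1 loaded, 6 residual degrees of freedom). P-values were adjusted by Benjamini-Hochberg over all 15506 genes. In 20 seeded draws of simulated counts for Day 7 (15138 to 15188 genes tested), a median of 32.6% of changed genes (23% to 43.3%) were called at a log2 change of 1 and 71.2% (61.6% to 77.1%) at 2, and a median of 4.2% of calls (1.82% to 8.04%) were false. Far fewer genes were changed in these draws than were called at Day 7 in the data, so these rates may not carry over. Replicates differed by more than sampling noise, with a chi-square of 27.4 to 70.4 per degree of freedom, and correlated at 0.969 to 0.979. Correlations used log2 CPM with a prior count of 2. Gene lengths and positions came from GENCODE M21 on GRCm38.

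The 10 genes and all lists were chosen with earlier results of these data known. Every member was to be named, together with called genes of the related lists, among them the most changed ones at Week 4, and the 3 genes of most similar pattern to *Eln* and to the genes furthest above and below control at Week 4. *Lox*, *Loxl1* and the shorter motif words were added after values were seen. Alternatives were DESeq2 1.42.0, its size factors, library totals, no filter, a replicate block, each time point alone, stricter thresholds and leaving out each library.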

Additional observations from a re-analysis of the deposited data

Results flagged for a closer look

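The effect of *Sox17*-*Erg* against control differed between time points for 2 of the 10 elastic fiber genes, by the interaction test in edgeR between Day 3 and Week 4, against 3.21% of all genes tested (2.22% up and 0.987% down). For *Fbn2* the log2 fold change was 1.09 at Day 3 and -2.28 at Week 4, a difference of -3.37 (SE 0.55, adjusted p = 0.0136). For *Fbln1* it was 0.74 at Day 3 and -3.06 at Week 4, a difference of -3.80 (SE 0.44, adjusted p = 0.00416). Neither Day 3 value was called in this fit. That of *Fbn2* was called by DESeq2 (1.07, adjusted p = 0.0258), with Day 3 fitted alone (1.06, adjusted p = 0.0124) and without the filter on low counts (1.09, adjusted p = 0.000598), and that of *Fbln1* without the filter (0.74, adjusted p = 0.0128). The difference for *Fbn2* was no longer called without either control library of Day 3 or either *Sox17*-*Erg* library of Week 4 (-3.57 to -3.19). Groups of 2 libraries are too small to look for single outlying samples.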

How the results depend on the processing

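With 2 libraries a group and 6 residual degrees of freedom, small effects could go undetected. In the simulation most changes of 1 on the log2 scale were missed, but far fewer genes were changed there than were called in the data. The adjusted threshold is stricter in that setting, so the share missed in the data is not known. Counts that moved by over 1.5 times are given here, for the 10 elastic fiber genes unless related genes are named.

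At Day 3 the 1 higher gene became 2 with library totals, 4 without the filter, 3 with DESeq2, 3 with the time point alone and 0 to 3 without 1 library. The 2 lower genes became 1 with library totals, 0 at an adjusted p under 0.01, 1 at a log2 fold change of at least 1 and 0 to 3 without 1 library. At Day 7 the 4 higher genes became 1 with the time point alone, 2 at either stricter threshold and 2 to 4 without 1 library, and the 4 lower genes became 2 with the time point alone, 2 at p under 0.01 and 2 to 4 without 1 library. At Week 4 the 5 higher genes became 3 to 5 without 1 library. Calls over all genes moved as well. At Day 3 the 1115 higher and 795 lower became 903 and 753 with library totals, 1518 and 1333 without the filter, 1374 and 1245 with DESeq2, 1261 and 986 with the time point alone, and 201 to 1104 and 66 to 1001 without 1 library. At Day 7 the 1470 and 1230 became 609 and 479 with the time point alone and 623 to 1371 and 297 to 1292 without 1 library, and at Week 4 the 1845 and 1703 became 1049 to 1885 and 648 to 1710 without 1 library. Effects that differed between Day 3 and Day 7 numbered 0, but 3 without the filter and 2 with DESeq2, and between Day 7 and Week 4 they numbered 0, but 1 and 1. Between Day 3 and Week 4 they numbered 2, but 4 with library totals, 5 without the filter, 4 with DESeq2, 1 at p under 0.01 and 1 to 3 without 1 library. For these differences in effect, calls over all genes under the alternatives are not given here.

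From Day 3 to Week 4 the 5 higher genes in control became 2 at p under 0.01 and 2 to 6 without 1 library. In *Sox17*-*Erg* cultures the 4 higher genes became 2 to 4 without 1 library, and the 3 lower genes became 1 at either stricter threshold and 0 to 3 without 1 library. Of the related genes, the 3 higher at Day 3 became 5 with the time point alone, 0 at either stricter threshold and 0 to 3 without 1 library. The 8 lower at Day 3 became 15 without the filter, 14 with DESeq2, 2 at p under 0.01, 5 at a log2 fold change of at least 1 and 0 to 11 without 1 library. The 5 higher at Day 7 became 1 with the time point alone, 2 at p under 0.01 and 2 to 5 without 1 library, and the 8 lower became 14 without the filter, 14 with DESeq2, 4 with the time point alone, 2 at p under 0.01 and 1 to 9 without 1 library. The 8 lower at Week 4 became 13 without the filter, 2 at p under 0.01 and 2 to 10 without 1 library. The cause was not tested.

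The permutation test of *Fbln2* gave the same difference of 0.50 with DESeq2 size factors, but exact p = 0.0648. Directions turned only for values that were not called. With library totals, the change of *Fbn1* from Day 3 to Week 4 in *Sox17*-*Erg* cultures went from -0.05 to 0.000947. Without 1 library it ran from -0.19 to 0.18, and the Day 3 values from -0.0529 to 0.25 for *Eln*, -0.17 to 0.22 for *Fbn1*, -0.34 to 0.0362 for *Fbln2*, -0.48 to 0.0821 for *Emilin2*, -2.77 to 0.0034 for *Fbln7* and -0.11 to 0.21 for *Vcan*. The Day 7 value of *Fbn2* ran from -0.79 to 0.53, and the Week 4 values of *Loxl2* from -0.27 to 0.0732 and of *Thsd4* from -0.13 to 0.14.

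Replicate numbers are shared between groups, but no label says that a number marks a common isolation. Deviations of same-numbered libraries correlated across genes at 0.19, 0.30 and 0.17 between treatments on Day 3, on Day 7 and in Week 4, with 2 pairs in each comparison, so the numbers were not taken as pairs. With the replicate block, 3 genes instead of 2 were lower at Day 3, the added one being *Mfap4* (-1.48, adjusted p = 0.0264), and 3 instead of 4 rose to Week 4 in *Sox17*-*Erg* cultures, without *Fbln1* (0.91, adjusted p = 0.0601). Of the related genes, 2 instead of 3 were higher and 10 instead of 8 lower at Day 3, and 9 and 10 instead of 8 and 8 were lower at Day 7 and Week 4. The other counts of these genes, for treatment, interactions and Day 3 to Week 4, were equal with and without the block. Calls over all genes moved from 1115 higher and 795 lower to 1230 and 1030 at Day 3. They moved from 1470 and 1230 to 1572 and 1460 at Day 7, and from 1845 and 1703 to 1923 and 1895 at Week 4.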
